A study of Mus musculus with 6 samples.

Results

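The RUNX transcription factors *Runx1*, *Runx2* and *Runx3*, their shared binding partner *Cbfb*, and the corepressor genes *Runx1t1* and *Cbfa2t3* were described here on exon arrays of endothelial progenitors from 2 stages of the mouse embryo. These 6 genes, chosen by name, were among 16523 genes with a probe set on the arrays, and 28 of the 77669 probe sets that the array annotation gives to exactly 1 gene symbol belonged to them. *Runx1* had 4 probe sets, *Runx2* had 8, *Runx3* had 2, *Cbfb* had 3, *Runx1t1* had 7 and *Cbfa2t3* had 4. All 28 were analysed and no filter on low values was set.

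The cells were ETV2::GFP+FLK1+CD41- cells from E8.5 embryos (3 arrays) and ETV2::GFP+FLK1+CD41- cells from E7.5 embryos (3 arrays), with ICR females mated to ETV2::GFP males in both groups. The GFP reporter reads out *Etv2*, an ETS factor needed for endothelium and blood. FLK1, encoded by *Kdr*, is a VEGF receptor of mesodermal and endothelial progenitors, and sorting CD41- cells leaves out those that already carry this early blood marker. RNA of 50 sorted cells was amplified for each array. The study took the E8.5 cells from the embryo proper (EP) and treats those at E7.5 as extra-embryonic, while the labels give only the stage, so stage and site cannot be told apart. The question was which genes differ between progenitors of the same surface phenotype and of unlike capacity to form blood. The study calls the 3 replicates of a stage biological. It does not say whether they came from separate litters, and the p-values rest on the spread among these 6 arrays alone.

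RUNX proteins bind DNA through the Runt domain, and CBFB, which does not touch DNA itself, raises their affinity and stability. RUNX1 is needed for the endothelial-to-hematopoietic transition, by which hemogenic endothelium gives rise to blood cells. RUNX2 is the master regulator of bone formation, and RUNX3 acts in T lymphocytes and sensory neurons. RUNX1T1 (ETO) and CBFA2T3 (ETO2) are corepressors that do not bind DNA on their own. Both are known from leukemia, where chromosome translocations fuse them to RUNX1, and CBFA2T3 also sits in the TAL1 and GATA complexes of blood progenitors.

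Transcription of *Runx1* starts at a distal and at a proximal promoter, and each of these starts had a window in the RefSeq promoter table (GRCm38.p6), which runs from 250 bases before a start to 50 after it. The 250 bases before each start are shown because *Runx1* is the member whose signal differed most between the stages. The distal one is chr16:92826075-92826324 and the proximal one chr16:92697330-92697579, both on the minus strand. Capitals mark the hexamers searched for, which were TGTGGT and TGCGGT for RUNX factors and CCGGAA for ETS factors, on both strands.
Runx1 distal: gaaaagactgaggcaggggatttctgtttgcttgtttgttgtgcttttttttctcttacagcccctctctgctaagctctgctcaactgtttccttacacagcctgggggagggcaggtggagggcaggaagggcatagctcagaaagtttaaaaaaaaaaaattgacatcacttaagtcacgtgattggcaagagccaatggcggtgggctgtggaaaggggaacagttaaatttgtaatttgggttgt
Runx1 proximal: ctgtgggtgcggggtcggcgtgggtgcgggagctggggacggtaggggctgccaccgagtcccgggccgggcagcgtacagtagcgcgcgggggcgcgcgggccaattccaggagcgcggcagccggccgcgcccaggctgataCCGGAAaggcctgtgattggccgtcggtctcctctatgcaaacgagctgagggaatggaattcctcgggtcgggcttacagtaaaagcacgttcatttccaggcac
The distal stretch held none of these hexamers and the proximal stretch held 1 ETS hexamer. Of the 32851 windows in the table, 14.9% held an ETS hexamer and 22.4% held a RUNX hexamer. These shares were counted over the full 300 bases, more than the stretches shown. The full distal *Runx1* window held 2 RUNX hexamers, both after the start. The probe sets have no positions in the sources used here, so none could be given to transcripts from either promoter. With primers for each isoform, the study linked its *Runx1* difference to the proximal promoter, which gives the isoform *Runx1b*. It found the distal isoform *Runx1c* absent in both populations.

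The promoter windows of the 3 RUNX genes share a sequence. The distal *Runx1* window, the *Runx2* window and the distal *Runx3* window had in common a run of 18 bases with a pair of RUNX hexamers (both read ACCACA). The 30 bases around it are shown, with RUNX hexamers in capitals, because they are a feature of these members that their choice by name did not use.
Runx1: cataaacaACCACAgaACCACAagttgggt
Runx2: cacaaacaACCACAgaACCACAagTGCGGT
Runx3: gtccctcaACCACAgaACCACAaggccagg
These lie at chr16:92826025-92826054 (minus strand), chr17:44814583-44814612 (minus strand) and chr4:135120503-135120532 (plus strand). Counted from the first transcribed base as 1, the run lay at bases 27 to 44 in *Runx1* and at bases 22 to 39 in *Runx2*, and in *Runx3* it lay before the start, at bases -136 to -119. On either strand, 4 of the 32851 windows held the run, those 3 and a window of the annotated gene *Gm16225*. Of all windows, 0.213% had 2 RUNX hexamers that start within 10 bases of each other. The *Cbfb* window and the proximal *Cbfa2t3* window held no RUNX hexamer, and the distal *Cbfa2t3* window held 1. A match of letters is a description and says nothing of whether a factor bound there.

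Of the 6 genes, *Runx1* alone had all E8.5 arrays below all E7.5 arrays, with a mean 7.40-fold lower at E8.5. None of the 6 passed the test across all genes at an adjusted p of 0.05, a threshold that 18 of the 16523 genes passed (0.109%). At an unadjusted p under 0.05, 1 of the 6 members was lower at E8.5 and 0 were higher, against 4.68% and 3.11% of all genes. The same member was the 1 with means more than 2-fold lower at E8.5 (4.79% of all genes) and the 1 without overlap in that direction (7.12% of all genes). The gene-level value was the median over a gene's probe sets on each array, on the log2 scale.

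**Figure D1:**
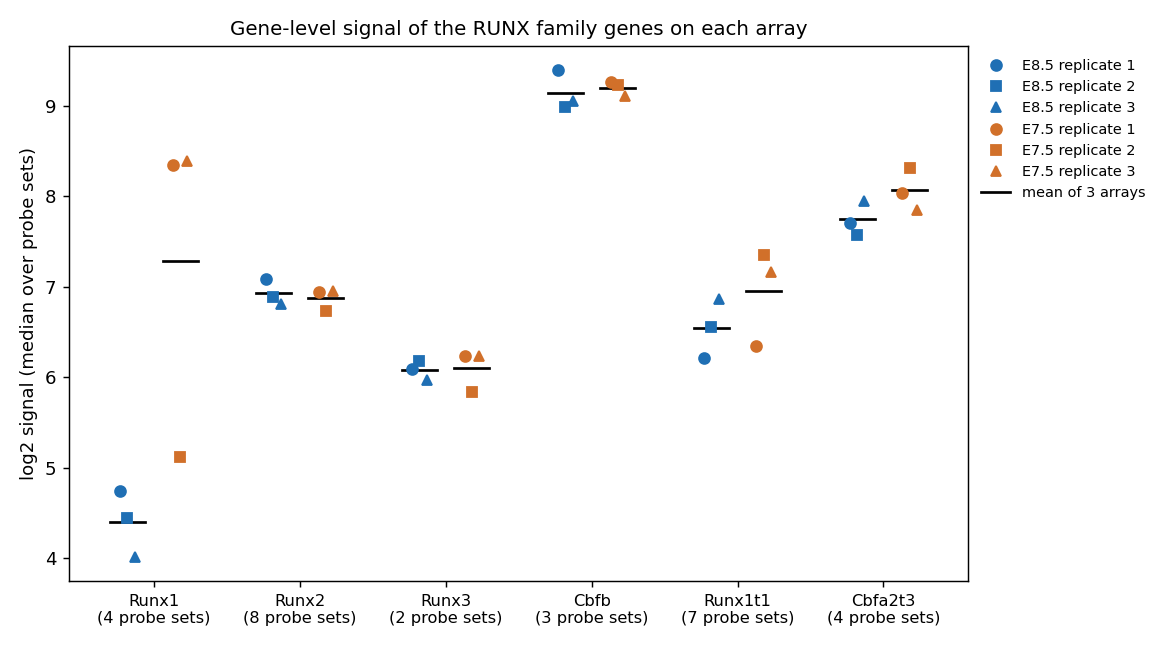
Gene-level log2 signal (y axis, median over the probe sets of a gene) of the 6 RUNX family genes on each of the 3 E8.5 arrays (blue) and 3 E7.5 arrays (orange), with black bars for means; levels of different genes are not comparable on this axis. *Runx1* lies between 4.01 and 4.74 at E8.5 and at 8.34, 5.12 and 8.39 at E7.5, while the arrays of the stages overlap for the other 5 genes.

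*Runx1* (chr16:92601466-92826074 in GRCm38.p6), the regulator of blood emergence, had gene-level log2 signals of 4.74, 4.45 and 4.01 on the E8.5 arrays, against 8.34, 5.12 and 8.39 on E7.5 replicates 1, 2 and 3. The E8.5 arrays lay within 0.73 of each other, whereas E7.5 replicate 2 stood 3.22 below the nearer of the other E7.5 arrays and 0.39 above the highest E8.5 array. The means were 4.40 ± 0.37 at E8.5 and 7.28 ± 1.87 at E7.5 (SD, n = 3 each). The difference was -2.89 with a standard error of 0.90 and a 95% interval of -5.07 to -0.70 (limma, unadjusted p = 0.018, adjusted p = 0.50). The exact two-sided permutation test gave p = 0.1, the smallest that 3 arrays against 3 allow. Without E7.5 replicate 2 the difference was -3.97 (limma adjusted p = 0.079), and without E7.5 replicate 1 or replicate 3 it was -2.36 or -2.33. In RNA from sorted pools, fewer cells with a transcript and less transcript per cell cannot be told apart. The study's single-cell assay of the same sorted phenotype found the isoform *Runx1b* in most E7.5 cells and in a minority of E8.5 (EP) cells.

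The 4 *Runx1* probe sets had lower means at E8.5 throughout, as was so for 200 of the 1759 genes with 4 probe sets (11.4%). Probe set 4914704 had signals of 3.13, 2.87 and 2.39 on the E8.5 arrays, against 7.31, 5.45 and 8.05 on the E7.5 arrays. This was the widest separation in the family, with a difference of -4.14 and a 95% interval of -5.84 to -2.44 (limma adjusted p = 0.23 over all probe sets). Probe set 4861087 had 4.79, 4.27 and 4.25 at E8.5, against 9.47, 4.61 and 8.73 at E7.5. Probe set 4936650 had 5.59, 5.73 and 5.81 at E8.5, against 9.37, 5.81 and 9.19 at E7.5. In these 2 probe sets E7.5 replicate 2 lay within the range of the E8.5 arrays, and the other E7.5 arrays stood far above it. Their differences were -3.17 ± 1.28 and -2.41 ± 0.98 (SE, limma adjusted p = 0.71 and 0.72). Probe set 4800865 had 4.68, 4.63 and 3.77 at E8.5, against 5.03, 4.79 and 4.95 at E7.5, without overlap but with a difference of only -0.56 ± 0.31 (SE, limma adjusted p = 0.78). E7.5 replicate 2 was the lowest E7.5 array in all 4.

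**Figure D2:**
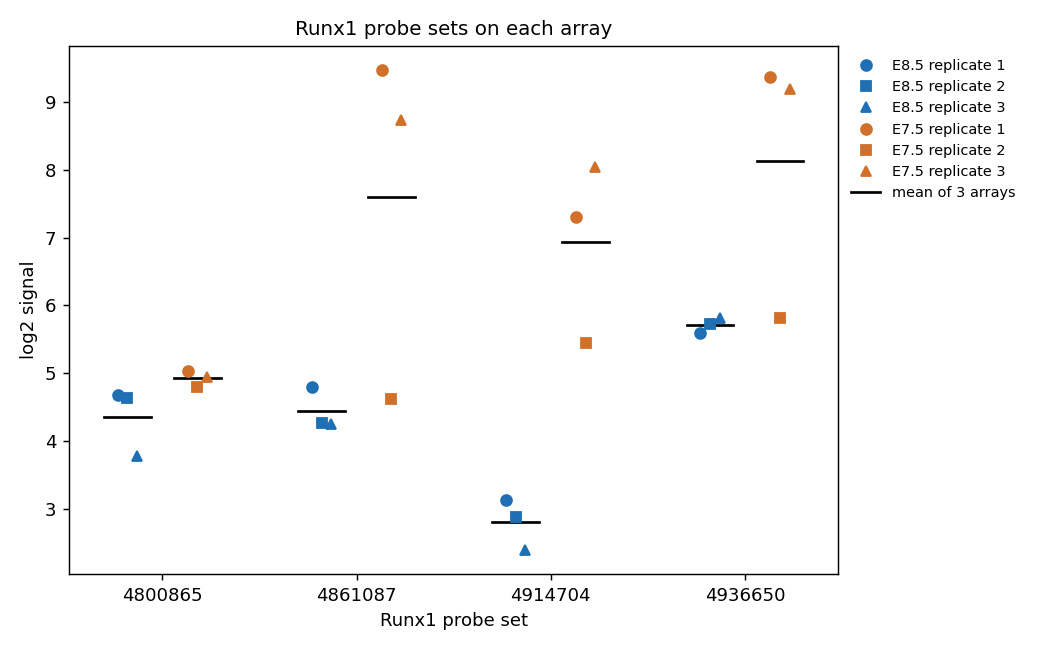
Log2 signal (y axis) of the 4 *Runx1* probe sets (x axis) on the E8.5 arrays (blue) and E7.5 arrays (orange), with black bars for means. E7.5 replicates 1 and 3 stand apart in 3 of the probe sets, E7.5 replicate 2 (orange square) lies near or among the E8.5 arrays in 2 of them, and probe set 4800865 shows a difference of -0.56.

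The probe sets of *Runx1* thus differed from each other in the size of their difference, between -4.14 and -0.56. The smallest was that of 4800865, which stayed between 3.77 and 5.03 on all 6 arrays, below the array medians of 6.98 to 7.07. Whether its signal lay above background at either stage is unknown. An exon array reads a transcript at several places, and limma's diffSplice F-test asks whether these places differ equally. Its adjusted p was 0.71 for *Runx1*, and 0 of the 6 members passed at an adjusted p of 0.05, against 1.42% of the 13115 genes with 2 or more probe sets. In simulated data whose probe sets differed in their spread, this test called unchanged genes more often than its threshold allows. Each probe set was therefore also set against the mean of the gene's other probe sets on the same array. On that measure 4914704 differed from the rest of *Runx1* by -2.09 ± 0.37 and 4800865 by 2.68 ± 0.90 (SE, limma adjusted p = 0.32 and 0.69). None of the 28 probe sets passed there, against 0.0175% of the 74261 probe sets tested. Without E7.5 replicate 2, diffSplice called *Runx1* (adjusted p = 0.00039), whereas the comparison with the other probe sets still called none of the 28.

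The other DNA-binding members had nearly the same signal at both stages. *Runx2* (chr17:44495987-44814797), the bone regulator, had 7.09, 6.89 and 6.81 on the E8.5 arrays, against 6.94, 6.74 and 6.96 on the E7.5 arrays. Its difference was 0.05, with a 95% interval of -0.37 to 0.47. *Runx3* (chr4:135120645-135177990) had 6.09, 6.18 and 5.97 at E8.5, against 6.24, 5.83 and 6.23 at E7.5, with a difference of -0.02 and an interval of -0.48 to 0.44. The arrays of the stages overlapped for both genes, at limma adjusted p = 0.96 for *Runx2* and 0.99 for *Runx3*.

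The 8 *Runx2* probe sets stayed near 0, with 6 lower and 2 higher means at E8.5 and differences between -0.38 and 0.33. The highest of these differences belonged to probe set 5371461, at 4.72, 5.05 and 4.60 on the E8.5 arrays, against 4.69, 4.52 and 4.16 on the E7.5 arrays (limma adjusted p = 0.82). The 2 *Runx3* probe sets differed in opposite directions. Probe set 4387332 had 5.89, 5.88 and 6.03 at E8.5, against 6.08, 5.90 and 6.54 at E7.5. Probe set 5502240 had 6.28, 6.47 and 5.91 at E8.5, against 6.39, 5.76 and 5.92 at E7.5. Their differences of -0.24 ± 0.24 and 0.20 ± 0.27 (SE) were no larger than the spread between arrays.

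*Cbfb* (chr8:105170674-105217989), the partner subunit on which all RUNX proteins depend, was at 9.39, 8.99 and 9.06 on the E8.5 arrays, against 9.26, 9.23 and 9.11 on the E7.5 arrays. The difference was -0.05 with an interval of -0.50 to 0.39 (limma adjusted p = 0.96). All 3 of its probe sets spanned more than the gene-level value, which spanned 0.40 over the 6 arrays, and 2 of them varied far more. Probe set 5434499 had 9.32, 6.35 and 6.10 at E8.5, against 6.40, 9.23 and 8.25 at E7.5, so that each stage held arrays near 6 and arrays above 8. Its difference of -0.71 had a standard error of 1.12. Probe set 5450314 spanned 1.55 over the 6 arrays, while probe set 4376200 stayed between 8.99 and 9.46.

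The corepressor genes had lower means at E8.5, by less than the spread allowed a call. *Runx1t1* (chr4:13742628-13895056) had 6.22, 6.56 and 6.86 on the E8.5 arrays, against 6.34, 7.35 and 7.16 on the E7.5 arrays. Its difference was -0.40 with an interval of -1.20 to 0.39 (limma adjusted p = 0.80). *Cbfa2t3* (chr8:122625136-122699332) had 7.71, 7.57 and 7.95 at E8.5, against 8.04, 8.31 and 7.85 at E7.5, and its difference was -0.32 with an interval of -0.82 to 0.17 (limma adjusted p = 0.75). The overlap came from E7.5 replicate 1 in *Runx1t1*, the lowest E7.5 array, and in *Cbfa2t3* from E7.5 replicate 3, which lay below E8.5 replicate 3.

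In *Runx1t1* the lower mean came mainly from probe set 4973590. Its signals were 6.22, 4.58 and 5.93 on the E8.5 arrays, against 6.26, 7.49 and 7.31 on the E7.5 arrays, without overlap but with only 0.04 between the nearest arrays. The difference was -1.44 ± 0.56 (SE, limma adjusted p = 0.70), while the 6 other probe sets lay between -0.36 and 0.31, 5 of them above 0. In the diffSplice F-test *Runx1t1* was the 1 member with an unadjusted p under 0.05, as were 9.07% of the 13115 genes, and its adjusted p was 0.41. Set against the mean of the gene's other probe sets, 4973590 differed by -1.50 ± 0.67 (SE, limma adjusted p = 0.78).

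In *Cbfa2t3*, 2 probe sets varied widely and 2 did not. Probe set 4899373 had 7.63, 7.82 and 8.28 at E8.5, against 8.42, 8.37 and 10.85 at E7.5, without overlap and with E7.5 replicate 3 far above the rest. Probe set 4833262 had 5.83, 6.16 and 5.37 at E8.5, against 5.36, 8.74 and 5.83 at E7.5, where E7.5 replicate 2 stood apart. A different E7.5 array was thus high in each, and the differences of -1.31 ± 0.72 and -0.85 ± 0.92 (SE) did not pass the test. The other 2 probe sets, 4971289 and 5289719, differed by 0.03 and -0.10.

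**Figure D3:**
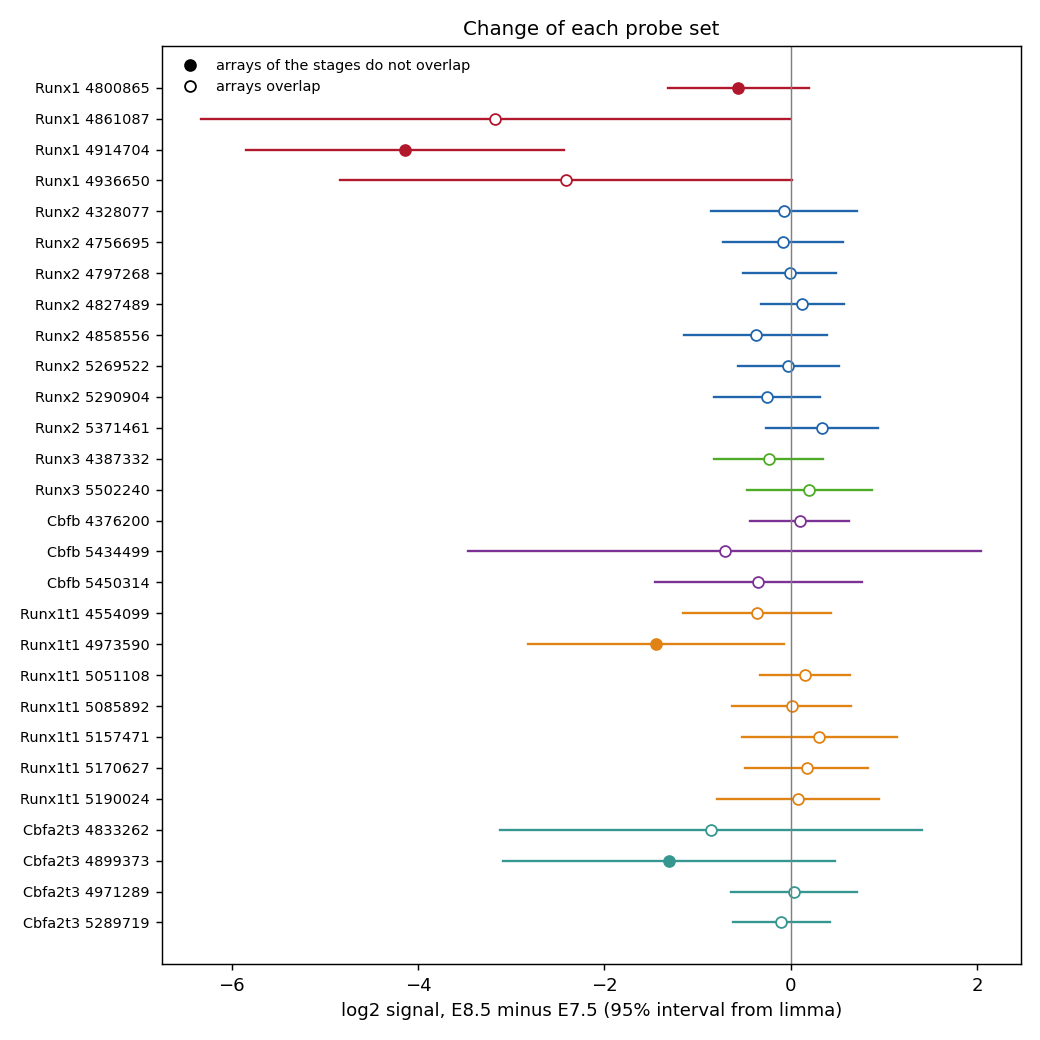
Difference in log2 signal, E8.5 minus E7.5 (x axis), of each of the 28 probe sets, with 95% intervals from limma; filled points are probe sets whose arrays do not overlap between the stages. The 4 filled points all lie below 0, 2 in *Runx1* and 1 each in *Runx1t1* and *Cbfa2t3*, and 3 intervals lie wholly below 0.

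Over all 28 probe sets, 18 had lower means at E8.5, against 51.3% of all probe sets, and 10 had higher means. The median difference was -0.09, against -0.01 over all probe sets. None passed at an adjusted p of 0.05, against 0.0824% of all probe sets. At an unadjusted p under 0.05, 3 of the 28 were lower at E8.5, against 4.34% of all probe sets. All E8.5 arrays lay below all E7.5 arrays in 4 of the 28, against 7.33% of all probe sets. The opposite, which was not counted over all probe sets, held in 0 of the 28.

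To ask whether *Runx1* differed more than its relatives, its log2 signal minus that of each other member was compared between the stages over 5 pairs. The *Runx1* difference minus that of *Runx2* was -2.94, minus that of *Runx3* it was -2.87 and minus that of *Cbfb* it was -2.83, each without overlap of the arrays. The exact permutation test gave p = 0.1 for each of these 3 pairs, the smallest possible, and 0.17 after adjustment over the 5 pairs. Against *Runx1t1* and *Cbfa2t3* the values were -2.48 and -2.56, with overlapping arrays (exact permutation p = 0.3 for each, 0.3 after adjustment). The *Runx1t1* value lay between -3.76 and -1.65 when arrays were left out in turn, lowest without E7.5 replicate 2 and highest without E7.5 replicate 1, and the *Cbfa2t3* value was -1.11 with the brightest probe set of each gene.

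The genes whose values lay closest to those of *Runx1* over the 6 arrays were *Fancm*, *Gata2*, *Dbt*, *Pi4k2a* and *Atp6v1b2*, out of 10417 genes with at least 3 probe sets. The measure was the root mean square difference of log2 signals after each gene's mean over the arrays was taken off, at 0.47, 0.57, 0.58, 0.74 and 0.78 in that order. *Fancm*, a DNA repair helicase of the Fanconi anemia pathway, had 2.90, 2.93 and 3.05 on the E8.5 arrays, against 6.07, 3.53 and 6.05 on the E7.5 arrays. *Gata2*, a transcription factor of early blood and endothelial progenitors, had 6.37, 7.19 and 5.97 at E8.5, against 9.86, 7.93 and 11.27 at E7.5. Because the genes were chosen for this likeness, their low values on E7.5 replicate 2 follow from the choice and are a description. None of them passed the test at the gene level (limma adjusted p between 0.13 for *Atp6v1b2* and 0.64 for *Dbt*).

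**Figure D4:**
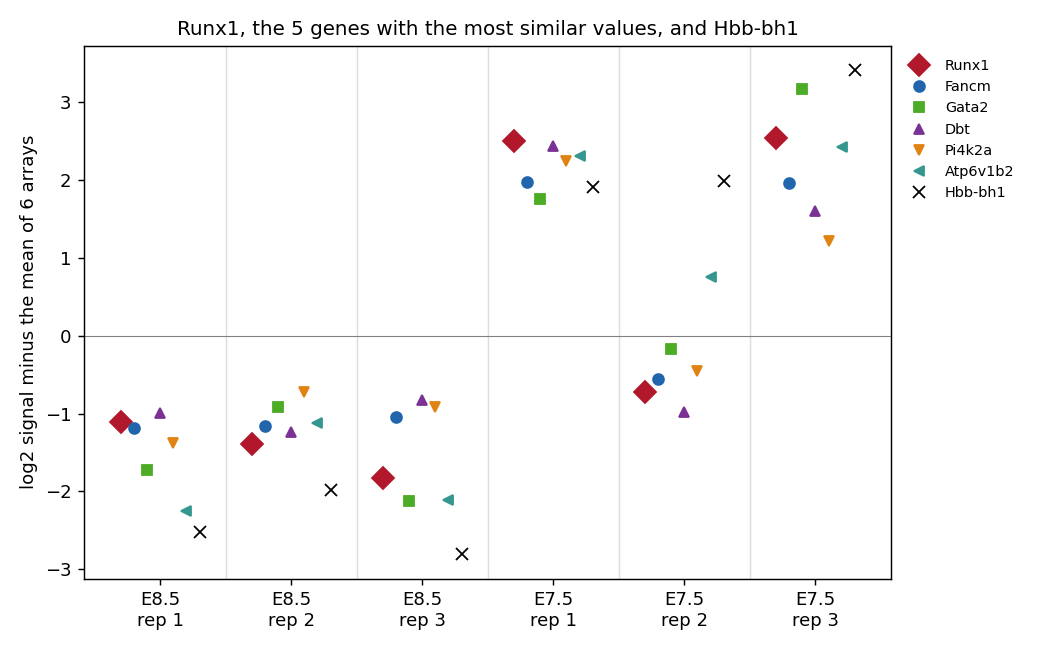
Log2 signal minus each gene's mean over the 6 arrays (y axis) for *Runx1*, the 5 genes with the most similar values and the embryonic globin gene *Hbb-bh1*, by array (x axis). The 5 genes were chosen for their likeness to *Runx1*, low values on E7.5 replicate 2 included, and *Hbb-bh1* is at 7.53 there and at 7.45 and 8.96 on the other E7.5 arrays before centring.

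The mean over markers of primitive erythroid cells was higher on every E7.5 array than on any E8.5 array, and was not low on E7.5 replicate 2. *Hbb-bh1*, the embryonic beta-like globin, fell to 3.02, 3.56 and 2.73 on the E8.5 arrays, against 7.45, 7.53 and 8.96 on the E7.5 arrays (limma adjusted p = 0.046), 1 of the 6 measured of 9 listed erythroid markers to pass. That call was lost whichever of the 6 arrays was left out (limma adjusted p between 0.098 and 0.16), with the direction kept. *Gata1*, the erythroid GATA factor, had 5.47, 4.98 and 5.32 at E8.5, against 7.80, 7.38 and 6.18 at E7.5 (limma adjusted p = 0.36). *Hba-x*, the embryonic alpha-like globin, had 7.97, 7.76 and 7.78 at E8.5, against 7.73, 7.96 and 7.71 at E7.5. *Epor*, the erythropoietin receptor gene, differed by -1.51 ± 0.79, *Alas2* by 0.11 ± 0.24 and *Klf1* by -0.11 ± 0.25 (SE). Of the 6, 4 had lower means at E8.5, against 49.5% of all genes, and 2 had higher means. The mean over the 6 markers was between 5.94 and 6.11 on the E8.5 arrays, and 7.52, 7.52 and 7.08 on E7.5 replicates 1, 2 and 3. Of the markers of megakaryocytes and CD41+ progenitors, 0 of 6 measured passed, and their mean was between 6.34 and 6.60 at E8.5 and between 6.34 and 7.52 at E7.5. The part of such cells in the *Runx1* difference was not tested.

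The sort genes and the endothelial markers are given as a description. Both stages were sorted on the same markers, so the sort genes cannot check which array is of which stage. *Etv2* had 11.60, 10.93 and 11.48 on the E8.5 arrays, against 11.66, 12.09 and 11.72 on the E7.5 arrays, and *Kdr* had 8.43, 8.74 and 7.95 at E8.5, against 8.56, 9.92 and 8.84 at E7.5. *Itga2b*, which encodes CD41 and is a RUNX1 target, had 7.74, 7.84 and 7.58 at E8.5, against 7.85, 8.41 and 8.45 at E7.5. None passed (limma adjusted p = 0.72 for *Etv2*, 0.73 for *Kdr* and 0.67 for *Itga2b*). All E8.5 arrays lay below all E7.5 arrays for *Etv2* and *Itga2b*, as for 7.12% of all genes, and the arrays overlapped for *Kdr*. All 9 endothelial markers were measured and 0 passed. At an unadjusted p under 0.05, 3 were higher at E8.5 and 0 were lower, against 3.11% and 4.68% of all genes. Each of the 3 was without overlap, which was not counted over all genes in that direction. The endothelial list had a mean over the list between 8.497 and 8.920 at E8.5 and between 7.40 and 8.56 at E7.5. *Cldn5*, a tight junction gene of endothelium, had 11.60, 11.31 and 11.12 at E8.5, against 9.94, 9.02 and 9.31 at E7.5 (limma adjusted p = 0.14). *Emcn*, an endothelial sialomucin gene, and *Tie1*, an endothelial receptor gene, differed by 2.58 ± 0.68 and 1.27 ± 0.49 (SE, limma adjusted p = 0.42 and 0.59). Of the cardiac mesoderm markers, 0 of 6 passed. *Myl7*, an atrial myosin light chain gene, had 7.97, 10.63 and 7.09 at E8.5, against 11.34, 10.70 and 11.29 at E7.5, without overlap (limma adjusted p = 0.56). The mean over the cardiac list was 6.96, 8.58 and 6.65 at E8.5, against 7.05, 7.60 and 7.93 at E7.5, so that E8.5 replicate 2 stood above the other E8.5 arrays. It did not stand apart from them in *Runx1*, and the part of cardiac cells in the *Runx1* difference was not tested.

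Among 21 measured of 22 listed genes that act on *Runx1* transcription, *Bmp4* was the 1 that passed the test. This ligand of the BMP pathway fell to 3.40, 3.97 and 4.05 on the E8.5 arrays, against 9.56, 8.21 and 9.83 on the E7.5 arrays, a difference of -5.39 ± 0.46 (SE, limma adjusted p = 0.035). The direction held in all 13 alternatives and the call in 6 of them, and it was lost when any array other than E7.5 replicate 2 was left out (limma adjusted p between 0.080 and 0.13). At an unadjusted p under 0.05, 4 of the 21 were lower and 2 were higher at E8.5, against 4.68% and 3.11% of all genes. The median difference of the list was 0.05, against 0.00 over all genes. *Gata2* differed by -3.18 ± 0.84 and *Gata1* by -1.86 ± 0.44 (SE, limma adjusted p = 0.43 and 0.36). *Ring1*, a Polycomb ring finger protein, had 6.98, 6.93 and 7.20 at E8.5, against 7.79, 7.26 and 8.25 at E7.5. *Smad5*, a transducer of BMP signals, had 6.91, 5.95 and 6.55 at E8.5, against 5.05, 5.54 and 5.34 at E7.5 (limma adjusted p = 0.39). *Bmi1*, a Polycomb repressor, had 6.31, 6.34 and 6.38 at E8.5, against 5.86, 6.08 and 5.87 at E7.5. Its difference of 0.41 ± 0.16 (SE) was without overlap of the arrays, at a limma adjusted p of 0.61. *Bmp4*, *Smad5*, *Gata1*, *Gata2* and *Bmi1* were all subjects of the study itself. Their places in the list are therefore not independent of these samples.

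Among 22 measured of 26 listed cofactors and corepressors that bind RUNX proteins, 0 passed the test. At an unadjusted p under 0.05, 1 was lower and 2 were higher at E8.5, against 4.68% and 3.11% of all genes. *Sin3a*, the scaffold of a histone deacetylase complex, had 6.09, 7.37 and 6.47 on the E8.5 arrays, against 7.52, 7.60 and 8.03 on the E7.5 arrays (limma adjusted p = 0.55). The Groucho-family corepressors *Tle3* and *Tle2* differed by 0.51 ± 0.18 and 0.54 ± 0.20 (SE, limma adjusted p = 0.57 and 0.59). The acetyltransferase genes *Ep300*, *Crebbp* and *Kat6a* differed by 0.26, 0.01 and -0.01. The median difference over the list was 0.00, and 10 of the 22 had lower means at E8.5, against 49.5% of all genes.

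Of known targets of RUNX1 in blood cells, 19 of 23 listed were measured and 0 passed the test. Means were lower at E8.5 in 11, against 49.5% of all genes, and higher in 8, with a median difference of -0.04. All E8.5 arrays lay below all E7.5 arrays in 2 of the 19, *Itga2b* and *Gfi1b*, against 7.12% of all genes. They lay above them in 2, *Myl9* and *Cd4*, a direction not counted over all genes. *Itga2b* differed by -0.52 ± 0.22 (SE, limma adjusted p = 0.67). *Myl9*, a myosin light chain gene that RUNX1 controls in megakaryocytes, had 7.55, 7.69 and 7.32 on the E8.5 arrays, against 6.40, 6.97 and 6.47 on the E7.5 arrays. It was the 1 with an unadjusted p under 0.05 (limma adjusted p = 0.38), where 3.11% of all genes were higher at E8.5. *Gfi1* and *Gfi1b*, repressors of the endothelial program during blood emergence, differed by -0.04 ± 0.17 and -0.25 ± 0.18 (SE). *Myb*, a factor of definitive progenitors, had 4.26, 4.03 and 4.71 at E8.5, against 8.94, 4.50 and 4.47 at E7.5, with E7.5 replicate 1 high by itself, and its difference of -1.64 had a standard error of 1.22.

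Targets of RUNX2 in bone and cartilage served as the list for the sister factor, and 0 of the 10 passed the test. *Alpl*, alkaline phosphatase, had 6.73, 7.21 and 6.41 on the E8.5 arrays, against 7.44, 7.58 and 7.30 on the E7.5 arrays. *Col1a1*, a chain of type I collagen, had 7.75, 8.20 and 8.09 at E8.5, against 7.54, 7.62 and 7.41 at E7.5. These were the 2 with an unadjusted p under 0.05 (limma adjusted p = 0.59 and 0.60), in opposite directions. Over the 4 lists together, 12 of 72 distinct genes had an unadjusted p under 0.05 (16.7%), against the 4.68% lower and 3.11% higher of all genes, with lists that were not chosen independently of these data.

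**Figure D5:**
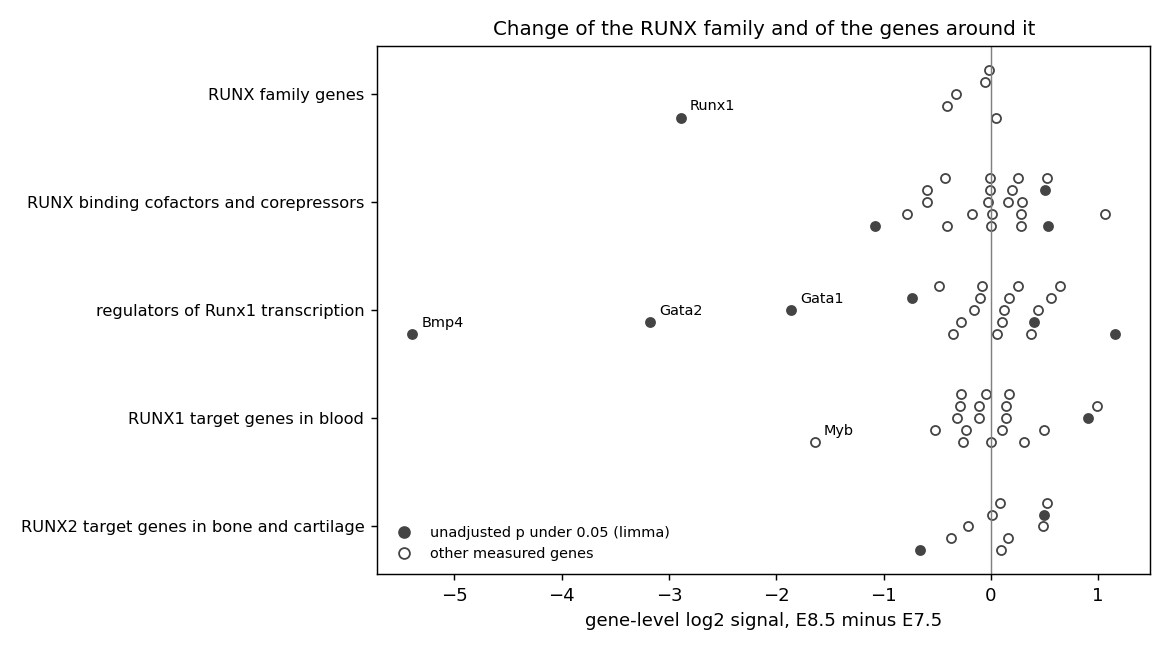
Gene-level difference in log2 signal, E8.5 minus E7.5 (x axis), of the 6 RUNX family genes and of the measured genes of 4 lists; filled points have an unadjusted p under 0.05 (limma). *Bmp4* at -5.39, *Gata2* at -3.18 and *Runx1* at -2.89 lie farthest from 0, and the target gene *Myb* at -1.64 is not among the filled points.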

How the data were processed

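Values were taken from 6 GeneChip Mouse Exon 1.0 ST arrays, 3 per stage. The authors deposited RMA log2 signals of 90788 probe sets. RMA corrects the background, quantile-normalizes the arrays and summarizes probes. The submitters' processing notes name Affymetrix Power Tools. Versions are not given in the sources used. Array medians lay between 6.98 and 7.07. Without detection p-values, signal over background is unknown, and precision is limited by the number of arrays. RMA compresses differences of dim probe sets, and amplification from 50 cells can lose transcripts at random.

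Probe sets were named through GEO's platform annotation. Those with 1 symbol numbered 77669 and were kept. The 654 with several symbols and the 12465 without a listed symbol were not used. Genes took the median over their probe sets, a summary that the study's methods give for clustering across platforms. For differential expression they name limma and give no gene summary. Of 16523 genes, 3408 rested on 1 probe set. Stages were compared (E8.5 minus E7.5) with limma 3.58.1 in R 4.3.3 (lmFit, eBayes, diffSplice, no filter on dim values), with Benjamini-Hochberg adjustment over all genes or probe sets and a threshold of 0.05. The scripts were tested on simulated data. The comparison of each probe set with the others of its gene was added after seeing the data. *Tle5* and *Kat6a* are on the array under older symbols. Listed genes without a single-symbol probe set here were not analysed.

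Of the 6 members, 5 had a RefSeq promoter window, and *Runx1t1* was not matched. The members and the lists were chosen with earlier results of these data known. Genes named beside the members were up to 3 per direction and list by smallest p, the 5 most similar to a member spanning over 2 log2 units, and the sort genes. *Ring1*, *Ep300*, *Crebbp*, *Kat6a*, *Gfi1*, *Klf1* and *Myb* were chosen after their values were seen. The markers of visceral endoderm and of paraxial mesoderm and neurectoderm had 0 genes past the threshold, of 6 and 4 measured, and 0 at an unadjusted p under 0.05. Alternatives covered the gene summary, normalization, dim genes, a block for the replicate number, the variance model, a t-test that the methods name for other data and leaving out each array.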

Additional observations from a re-analysis of the deposited data

How the results depend on the processing

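No RUNX family gene or probe set passed at an adjusted p of 0.05 under any alternative run, and *Runx1* kept a negative difference in each, between -3.97 and -2.33 when arrays were left out in turn. The limma adjusted p of *Runx1* then lay between 0.079 and 0.75. *Runx1* had no value among genes of above-median signal, a filter that it, *Runx3* and *Runx1t1* did not pass. Across all genes, 18 were called, against 11 with the mean over probe sets, 9 with the brightest probe set, 0 among genes of above-median signal, 0 with the methods' t-test (named there for other data, with limma for the arrays) and 0 to 12 without single arrays. Across all probe sets, 64 were called, against 6 among those of above-median signal and 0 to 16 without single arrays. Of the listed genes, 12 had an unadjusted p under 0.05, against 5 with the brightest probe set, 7 among genes of above-median signal and 7 to 13 without single arrays. diffSplice called 0 to 1 members without single arrays, the 1 being *Runx1* without E7.5 replicate 2. Of 13 alternatives, *Bmp4* kept its call in 6 and *Hbb-bh1* in 4, and with the replicate block their limma adjusted p was 0.27 and 0.31. The difference of *Runx1* minus that of each other member stayed negative, between -3.95 and -1.11.

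Replicate numbers are shared between the stages, and the labels do not say whether they pair the samples. Deviations from the stage mean had correlations of 0.0074, -0.0083 and -0.00082 across genes for arrays of the same number. Arrays of different numbers lay between -0.030 and 0.033. With 3 arrays per stage, such values cannot exclude a pairing. With the replicate number as a block, 0 genes and 0 probe sets were called in the whole table.

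Differences near 0 turned sign. So did those of *Runx1t1*, at -0.40, and of *Cbfa2t3* probe set 4833262, at -0.85, the latter only without E7.5 replicate 2. *Runx2* was at -0.047 with the mean over probe sets and between -0.028 and 0.11 without single arrays. *Runx3* was at 0.20 with the brightest probe set, 0.027 with array medians subtracted, 0.013 after a second quantile normalization and between -0.15 and 0.048 without single arrays. *Cbfb* was at 0.061 after that normalization and between -0.18 and 0.023 without single arrays, and *Runx1t1* was at 0.31 with the brightest probe set. Of 28 probe sets, 9 turned sign in an alternative, and 0 of these were of *Runx1*. *Runx2* probe set 4797268 was at 0.034 and 0.053 and probe set 5269522 at 0.021 and 0.0097 with array medians subtracted and after the second normalization. Without single arrays, *Runx2* probe sets 4328077, 4756695, 4797268 and 5269522 lay between -0.33 and 0.10, -0.21 and 0.11, -0.083 and 0.091, and -0.14 and 0.074 in that order. *Runx1t1* probe sets 5085892, 5170627 and 5190024 lay between -0.10 and 0.23, -0.0086 and 0.37, and -0.26 and 0.28, and *Cbfa2t3* probe sets 4833262 and 4971289 between -1.50 and 0.19 and between -0.16 and 0.21. The cause was not tested.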
